A study of Mus musculus with 10 samples.

Results

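The transcription factor p53, encoded by Trp53, and 33 genes known as its regulators or targets were followed in E14 mouse embryonic stem (ES) cells. The cells went through the removal of 2iL, with and without doxycycline to induce Esrrb. The genes were taken by symbol from a list of 34. All 34 were found among the 31053 genes of the count files with at least 10 reads over the 10 libraries. A filter on low counts left 11215 genes for testing, 33 of them from the list; Fas, with 11 reads in all, did not pass it. The list holds p53 with 3 regulators, 12 genes of cell cycle arrest and growth control, 13 of apoptosis and 5 of DNA repair.

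p53 is a DNA-binding factor that switches on genes of cell cycle arrest, apoptosis and DNA repair after damage. Its ligase Mdm2 marks it for destruction, Mdm4 binds it and blocks its activity, and the phosphatase Ppm1d removes activating phosphates from it and from its kinases. Mdm2 and Ppm1d are themselves p53 targets, so that the response limits itself, and in ES cells p53 is known both as a guard of genome integrity and as a factor that lowers Nanog during differentiation. Much of the control of p53 acts on the protein, which was not measured here.

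All cells were E14 mouse ES cells with a stably transfected, doxycycline (DOX) inducible Esrrb construct, and the controls carried it too. No group had DOX without the construct, so effects of the drug and of Esrrb cannot be told apart. The sources used here do not say whether the line was 1 clone or a pool. Esrrb is an orphan nuclear receptor that sustains naive pluripotency. The 96 h DOX group (3 libraries, exp1_1, exp2_1 and exp1_2) was grown for 96 h in N2B27 medium without 2iL and with DOX. The 96 h no-DOX group (3 libraries, exp1_1, exp1_2 and exp2_2) had the same medium without DOX. The 2iL group (4 libraries, exp1_1, exp1_2, exp2_1 and exp2_2) was kept undifferentiated by CHIR99021, PD0325901 and LIF, without DOX. The names give the experiment and the library number of the titles, and per-library values below follow these orders. Nothing says that libraries of 1 group came from separate cultures, so p-values measure only the spread between these libraries, which may be technical.

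Libraries held 1253620 to 4715450 reads in genes, with a median of 3334324.5. The summed level of 8 ES cell markers was 1599 to 1670 CPM (reads scaled to the library total) in the 96 h DOX libraries, 968 to 1117 in 96 h no-DOX and 2068 to 2196 in 2iL. The sum of 5 epiblast markers was 1279 to 1901, 2541 to 2767 and 217 to 253 CPM in the same order of groups, and that of 8 endoderm markers was 298 to 538, 21.5 to 31.8 and 18.2 to 27.4 CPM. The ES cell markers did not move together. Utf1 and Dppa4 were higher with DOX than in 2iL, and Nanog, Zfp42, Tfcp2l1 and Klf4 were lower. Pou5f1 and Sox2 overlapped between these groups. Utf1 was at 583 to 691 CPM with DOX and 99.0 to 137 CPM in 2iL. Tfcp2l1 was at 48.7 to 143 CPM with DOX and 838 to 907 CPM in 2iL. Library 96 h DOX exp1_2, the smallest, stood apart. The date in the name of its deposited file is later than the date shared by the other 9, and the labels do not say what these dates mark. Its 8 fibroblast markers summed to 2102 CPM, against 1.82 to 23.9 CPM elsewhere, and Postn was at 0 in every other library. Col1a1 and Col1a2 gave 595 and 1288 CPM of this sum. Lum, at 0.80 CPM, lay within its range elsewhere (0 to 1.44 CPM). Its 6 macrophage markers summed to 67.8 CPM, against 8.33 to 30.7 elsewhere. Of these, Adgre1 was at 0 and Cd68, at 5.58 CPM, was below all other libraries (8.33 to 29.9 CPM). Mitochondrially encoded protein genes took 3.10% of its reads, against 0.559% to 1.27% elsewhere, ribosomal protein genes 7.46%, against 13.9% to 17.5%, and the ribosomal-repeat gene Gm42418 14.8%, against 3.39% to 6.61%. The part of these values and of the date in the results was not tested, and where leaving out this library ends or makes a call, the value without it is given. Levels below are CPM after TMM scaling, as mean ± SD over libraries, and are compared only within a gene.

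Removal of 2iL was followed by changes in both directions. Among the 33 tested genes, 8 passed an adjusted p of 0.05 in edgeR's quasi-likelihood test of 96 h no-DOX against 2iL, beside 20.4% of all 11215 genes. The apoptosis genes Pmaip1, Perp and Tnfrsf10b, the growth arrest gene Gadd45a and the repair gene Ercc5 rose (5 genes, beside 11.5% of all genes higher). Trp53, its inhibitor Mdm4 and the cell cycle inhibitor Cdkn1a fell (3 genes, beside 8.9% of all genes lower). The median log2 change of the 33 was 0.21, beside 0.0039 over all genes, and 23 fitted values lay above 0. DOX exp1_2 belongs to neither of these groups but shares the fitted spread. Without it 12 of the listed genes passed, beside 2718 of 11635 genes, against 2289 of 11215 with it. Of the further 4, Bbc3 (log2 0.83 ± 0.28, edgeR adjusted p = 0.037) and Zmat3 (0.60 ± 0.20, adjusted p = 0.028) were higher. Gdf15 (-0.93 ± 0.33, adjusted p = 0.047) and Ei24 (-0.67 ± 0.23, adjusted p = 0.040) were lower. For Gdf15 the sign differed between experiments, with log2 values of 0.42 within experiment 2 and -1.73 within experiment 1. In bulk RNA, fewer cells that express a gene and less RNA per cell cannot be told apart.

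Trp53 (ENSMUSG00000059552, chr11:69580359-69591873, plus strand, GRCm38/mm10) was the member at the head of the pathway. It was at 36.1, 51.0 and 77.4 CPM in the 96 h DOX libraries, at 30.8, 26.1 and 20.3 CPM in the 96 h no-DOX libraries, and at 48.0, 53.8, 40.8 and 41.8 CPM in the 2iL libraries. All 3 no-DOX libraries lay below all 2iL libraries and below all DOX libraries, whereas the DOX and 2iL libraries overlapped. The means were 54.8 ± 20.9 (n = 3), 25.7 ± 5.29 (n = 3) and 46.1 ± 6.03 CPM (n = 4). Trp53 fell without 2iL by 0.84 on the log2 scale (SE 0.29, edgeR adjusted p = 0.041). That call was lost without any 1 of the 7 libraries compared, over which the log2 change ran from -0.99 to -0.69 and the adjusted p reached 0.158. With DOX against no DOX the log2 difference was 1.07 ± 0.30 and missed the threshold (edgeR adjusted p = 0.062). It was 0.75 ± 0.30 (adjusted p = 0.26) without 96 h DOX exp1_2, the library with the highest Trp53 level. DESeq2 called the difference (adjusted p = 0.022), and limma-voom did not (0.103). The signs were the same in both experiments: within experiment 2 the log2 values were -1.03 for no DOX against 2iL and 1.33 for DOX against no DOX, and within experiment 1 they were -0.84 and 0.96.

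Mdm4 (chr1:132959484-133030561, minus strand) was lower at 96 h than in 2iL, with and without DOX. Its levels were 82.2, 81.4 and 83.2 CPM with DOX, 82.2, 70.1 and 82.6 CPM without DOX, and 162, 119.6, 143 and 149.7 CPM in 2iL. No 96 h library reached the lowest 2iL library. The log2 change was -0.80 ± 0.21 for DOX against 2iL (edgeR adjusted p = 0.011) and -0.87 ± 0.21 for no DOX against 2iL (adjusted p = 0.0045). Both contrasts use the same 2iL libraries. Both calls held without each library in turn. DOX and no DOX differed by 0.07 ± 0.22 on the log2 scale.

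Mdm2, the ligase that p53 itself induces, varied widely within each group. It was at 251, 312 and 99.5 CPM with DOX, at 428, 291 and 520.0 CPM without DOX, and at 455, 328, 247 and 210.3 CPM in 2iL. The groups overlapped, and no comparison passed the test. The lowest value was that of 96 h DOX exp1_2; the log2 difference of DOX against no DOX was -0.89 ± 0.35 with it (adjusted p = 0.21) and -0.55 ± 0.29 without it (adjusted p = 0.46). Ppm1d averaged 20.1 ± 7.20 CPM with DOX, 25.5 ± 6.44 without DOX and 22.7 ± 5.65 in 2iL, and passed in no comparison.

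**Figure D1:**
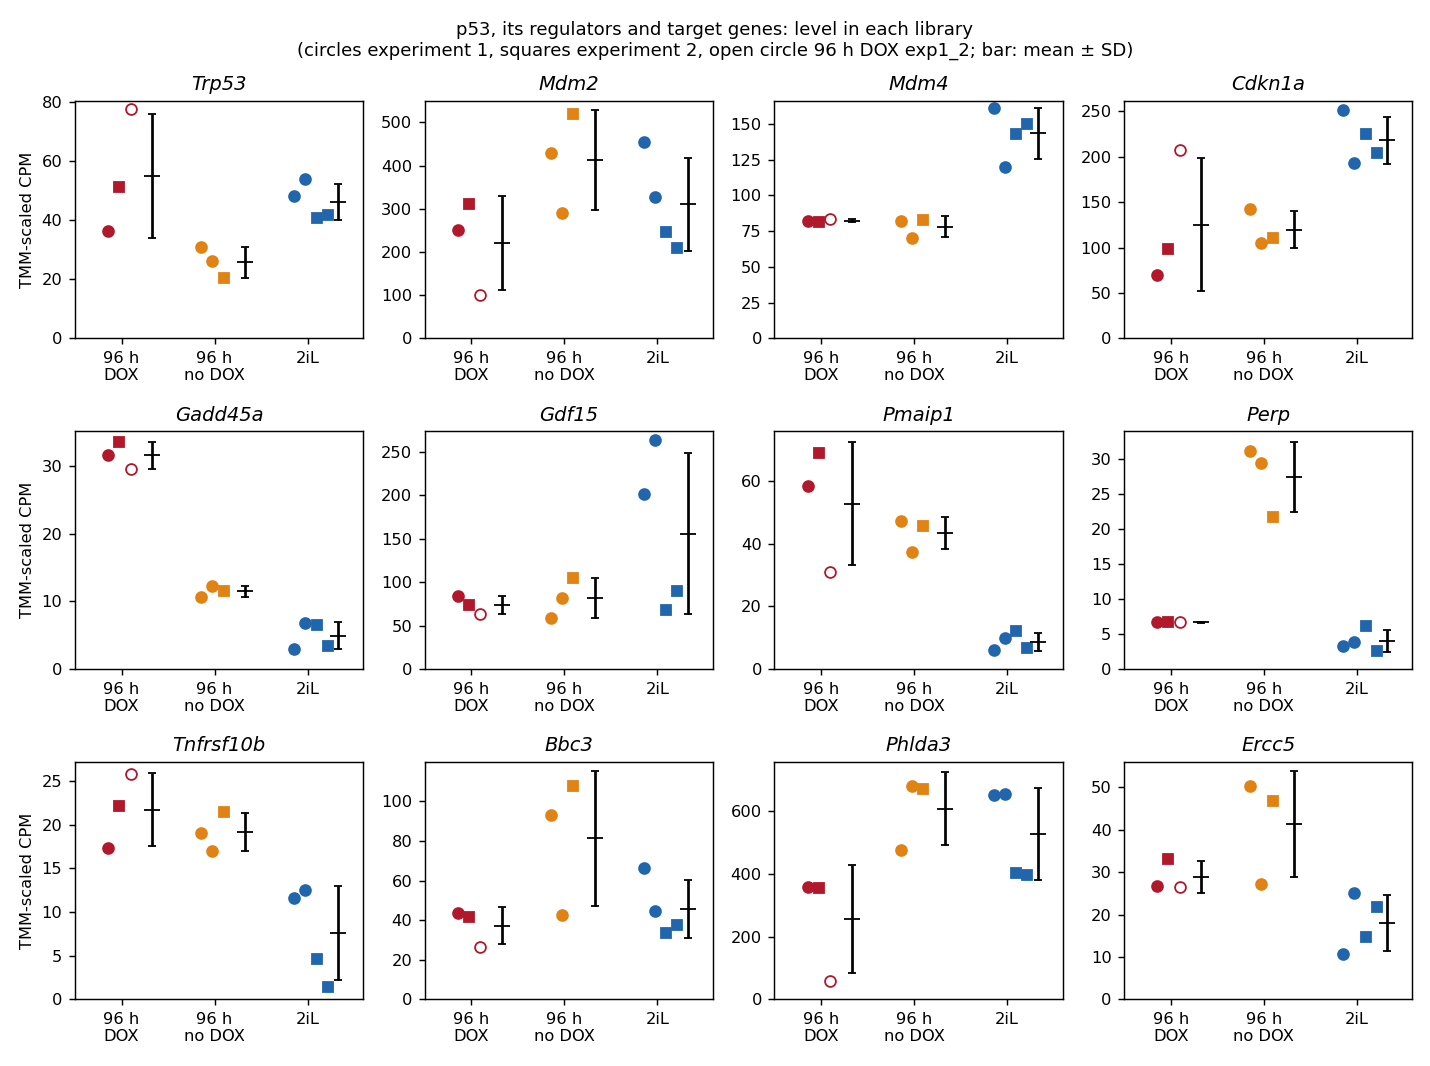
Level of 12 genes of the p53 pathway in each library, in TMM-scaled CPM on linear axes that start at 0. Circles are experiment 1, squares experiment 2 and the open circle is 96 h DOX exp1_2; bars give mean ± SD. Pmaip1 is high in both 96 h groups, Perp only in the 96 h no-DOX libraries (21.7 to 31.1 CPM), and Gadd45a is highest with DOX (29.5 to 33.5 CPM).

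Cdkn1a encodes p21, the inhibitor of cyclin-dependent kinases through which p53 halts the cell cycle (ENSMUSG00000023067, chr17:29090976-29100727, plus strand). The bases before the starts of Cdkn1a, Gadd45a and Trp53 are shown because these 3 genes were called without 2iL and p53 half-sites, 10 bases each, lie there. The sequences are those of RefSeq on GRCm38.p6, 5′ to 3′ on the gene's strand and ending just before its annotated start, with half-sites in capitals.
Cdkn1a, chr17:29090729-29090978, plus strand: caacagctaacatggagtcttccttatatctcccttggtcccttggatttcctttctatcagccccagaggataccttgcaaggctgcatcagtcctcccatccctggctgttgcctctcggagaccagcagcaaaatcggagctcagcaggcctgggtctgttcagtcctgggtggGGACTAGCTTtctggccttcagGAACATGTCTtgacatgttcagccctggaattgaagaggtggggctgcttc
Gadd45a, chr6:67037408-67037657, minus strand: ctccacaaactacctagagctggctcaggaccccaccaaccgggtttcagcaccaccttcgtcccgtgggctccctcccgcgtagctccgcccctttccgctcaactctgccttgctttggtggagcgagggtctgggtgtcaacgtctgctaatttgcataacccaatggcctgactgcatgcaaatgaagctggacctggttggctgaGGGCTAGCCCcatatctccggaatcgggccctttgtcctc
Trp53, chr11:69580109-69580358, plus strand: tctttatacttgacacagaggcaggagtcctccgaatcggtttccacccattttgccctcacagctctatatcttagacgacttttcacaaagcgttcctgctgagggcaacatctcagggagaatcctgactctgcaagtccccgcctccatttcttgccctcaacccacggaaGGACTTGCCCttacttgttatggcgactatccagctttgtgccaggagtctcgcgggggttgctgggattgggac
Cdkn1a has half-sites 73 to 64 and 51 to 42 bases before its start, Gadd45a 1 at 40 to 31 bases and Trp53 1 at 75 to 66 bases. The RefSeq start of Gadd45a lies inside the GENCODE vM21 gene, so its half-site is within that annotated gene. Windows of 250 bases before to 50 after the start were found for 26 of the 34 genes and for 27025 genes in all, and were searched on both strands for the p53 half-site and no other motif. It occurred in 13 of the 26 (50%; Trp53, Cdkn1a, Mdm2, Ccng1, Bax, Sesn1, Gtse1, Aen, Polk, Ei24, Gadd45a, Ckap2 and Ppm1d) and in 9.55% of all windows. A pair of half-sites at most 13 bases apart with at most 1 mismatch occurred in 3 of the 26 (11.5%; Cdkn1a, Ccng1 and Gtse1) and in 0.718% of all. The list holds known p53 targets, and a match describes the letters only. Windows of Rrm2b, Zmat3, Ddb2, Xpc, Pmaip1, Perp, Tnfrsf10b and Trp53inp1 were not used here. Of the 13 half-site genes, Trp53, Cdkn1a and Gadd45a were among the 8 called without 2iL, beside 20.4% of all tested genes. Mdm4 and Ercc5, with a window but no half-site, were also called, and Pmaip1, Perp and Tnfrsf10b had no window searched. A link between half-sites and calls was not tested.

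Cdkn1a was at 70.1, 98.3 and 208 CPM in the 96 h DOX libraries, at 143, 105 and 111 CPM in the 96 h no-DOX libraries and at 251, 193, 225 and 204 CPM in the 2iL libraries. All no-DOX libraries were below all 2iL libraries, and so were 2 of the 3 DOX libraries; the exception was exp1_2. It fell without 2iL by 0.87 on the log2 scale (SE 0.29, edgeR adjusted p = 0.035). The adjusted p was 0.05 to 0.114 without any 1 of the compared libraries except 2iL exp1_2, where the call was kept. For DOX against 2iL, the log2 value was -0.82 ± 0.29 (adjusted p = 0.056) with all libraries and -1.38 ± 0.23 (adjusted p = 0.0002) without DOX exp1_2. Against no DOX, the DOX libraries differed by 0.05 ± 0.30 with exp1_2 and by -0.51 ± 0.23 without it, and neither value passed (adjusted p = 0.96 and 0.37).

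Gadd45a encodes a stress-induced protein of growth arrest and DNA repair that can be induced by p53 and by other routes. It was at 31.6, 33.5 and 29.5 CPM with DOX, at 10.6, 12.3 and 11.5 CPM without DOX and at 3.00, 6.73, 6.45 and 3.33 CPM in 2iL. The 3 groups did not overlap, and the DOX group was the highest. The log2 difference was 2.67 ± 0.38 for DOX against 2iL (edgeR adjusted p = 4.57e-05) and 1.21 ± 0.38 for no DOX against 2iL (adjusted p = 0.026). DOX against no DOX gave 1.46 ± 0.39 (adjusted p = 0.041), a 2.75-fold higher level. The first of these calls held without each library in turn. That of DOX against no DOX was lost without any 1 of the 6 libraries compared, although the log2 difference stayed between 1.41 and 1.52 (adjusted p up to 0.153); without DOX exp1_2 it was 1.5 ± 0.42 (adjusted p = 0.069). That of no DOX against 2iL was lost without 2iL exp1_1, 2iL exp2_2 or any no-DOX library (adjusted p up to 0.078). Within experiment 2 and experiment 1 the DOX against no-DOX values were 1.54 and 1.42.

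Gdf15, a secreted growth factor induced by p53 and by the integrated stress response, stood at different levels in the 2 experiments in 2iL. It was at 84.4, 73.4 and 63.4 CPM with DOX, at 58.4, 81.7 and 105 CPM without DOX, and at 202, 263, 67.6 and 89.8 CPM in 2iL. The high values were those of the experiment 1 libraries in 2iL, and the experiment 2 libraries overlapped both 96 h groups. Gdf15 fell in DOX against 2iL by 1.07 on the log2 scale (SE 0.36, edgeR adjusted p = 0.046). The call was lost without any 1 library other than 2iL exp2_1 or 2iL exp2_2 (adjusted p up to 0.177). Without DOX exp1_2 the log2 value was -0.98 ± 0.39 (adjusted p = 0.101). Within experiment 2 the value was -0.10, and within experiment 1 it was -1.64. For no DOX against 2iL these values had opposite signs, 0.42 and -1.73.

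The other 9 genes of the cell cycle group passed in no comparison with all 10 libraries. Ccng1, cyclin G1, an Mdm2 partner, averaged 143 ± 33.6 CPM with DOX, 178 ± 36.7 without DOX and 126 ± 12.4 in 2iL. Zmat3, an RNA-binding tumour suppressor, averaged 116 ± 26.8, 155 ± 35.3 and 102 ± 13.5 CPM in the same order. For no DOX against 2iL, their log2 values of 0.50 ± 0.22 and 0.60 ± 0.23 had adjusted p of 0.12 and 0.067. Btg2, an antiproliferative cofactor of mRNA decay, was at 22.6, 17.2 and 8.84 CPM with DOX and at 26.7, 32.99 and 40.0 CPM without DOX. These groups did not overlap, but the log2 difference of -0.98 ± 0.37 missed the threshold (adjusted p = 0.18). The G2-phase protein Gtse1, the spindle protein Ckap2, the kinases Plk2 and Plk3 and the sestrins Sesn1 and Sesn2, which restrain mTORC1, had log2 values between -0.52 and 0.58 in the 3 comparisons.

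Among the apoptosis genes, Pmaip1 and Perp moved most. Pmaip1 encodes Noxa, a BH3-only protein that neutralises Mcl1. It was at 58.5, 69.1 and 30.9 CPM with DOX, at 47.3, 37.5 and 45.5 CPM without DOX and at 5.99, 9.94, 11.98 and 6.65 CPM in 2iL. Every 96 h library was above every 2iL library. The log2 change against 2iL was 2.62 ± 0.33 with DOX (6.13-fold, edgeR adjusted p = 1.21e-05) and 2.31 ± 0.33 without DOX (4.98-fold, adjusted p = 2.43e-05). The groups with and without DOX overlapped and differed by 0.30 ± 0.33. Both calls against 2iL were kept without each library in turn and in experiment 1 alone.

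Perp encodes a membrane protein of desmosomes that takes part in p53-dependent apoptosis (ENSMUSG00000019851, chr10:18845020-18857073, plus strand). Its level was 6.65, 6.76 and 6.63 CPM in the 96 h DOX libraries, 31.1, 29.3 and 21.7 CPM in the 96 h no-DOX libraries and 3.33, 3.80, 6.14 and 2.59 CPM in 2iL. The DOX libraries lay just above the 2iL range and far below every no-DOX library. Without DOX, Perp rose over 2iL by 2.77 ± 0.40 on the log2 scale (6.81-fold, edgeR adjusted p = 2.79e-05). With DOX it was lower than without by 2.03 (log2 -2.03 ± 0.42, 0.245-fold, adjusted p = 0.0091), and against 2iL it differed by 0.74 ± 0.42 (adjusted p = 0.26). The value for DOX against no DOX was unchanged at -2.03 ± 0.48 (adjusted p = 0.021) without DOX exp1_2. The call was lost without no-DOX exp1_1 (-1.93, adjusted p = 0.06). Within experiment 2 and experiment 1 the values were -1.68 and -2.18.

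Tnfrsf10b, a death receptor for the ligand Tnfsf10, was at 17.3, 22.1 and 25.8 CPM with DOX, at 19.1, 17.0 and 21.4 CPM without DOX and at 11.7, 12.6, 4.61 and 1.48 CPM in 2iL. All 96 h libraries lay above the 2iL libraries, among which those of experiment 2 were the lowest. The log2 change against 2iL was 1.49 ± 0.47 with DOX (edgeR adjusted p = 0.034) and 1.32 ± 0.47 without DOX (adjusted p = 0.0497). The first call was lost without 2iL exp2_1, 2iL exp2_2, DOX exp2_1 or DOX exp1_2 (log2 1.36 ± 0.51 and adjusted p = 0.082 without the last). The second was lost without 2iL exp2_1, 2iL exp2_2, DOX exp1_1, DOX exp2_1 or any no-DOX library. Within experiment 2 the changes with and without DOX were 2.81 and 2.77; within experiment 1 they were 0.80 and 0.57.

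Bbc3, Phlda3 and Bax passed in no comparison with all 10 libraries, and their spread was wide. Bbc3 encodes Puma, a BH3-only activator of apoptosis, and was at 43.5, 41.5 and 26.5 CPM with DOX, 93.4, 42.7 and 108 CPM without DOX and 66.3, 44.7, 33.5 and 37.7 CPM in 2iL. Its log2 difference of DOX against no DOX was -1.10 ± 0.34 (adjusted p = 0.088), and no-DOX exp1_2 lay within the other groups. Phlda3, an inhibitor of Akt, was at 358, 357 and 58.2 CPM with DOX, 475, 680.2 and 671 CPM without DOX and 652, 657, 403 and 398 CPM in 2iL. The DOX libraries were the lowest, and exp1_2 was below all other libraries; the log2 difference from no DOX was -1.23 ± 0.44 with it and -0.77 ± 0.25 without it (adjusted p = 0.16 and 0.14). Bax, the pore-forming effector, ranged from 97.2 to 500.2 CPM with DOX, 227 to 864 without DOX and 289 to 486 in 2iL.

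With all 10 libraries, the remaining apoptosis genes passed in no comparison either. Ei24, a p53-induced protein of the endoplasmic reticulum, averaged 46.7 ± 8.62 CPM with DOX, 45.9 ± 12.8 without DOX and 72.5 ± 4.92 in 2iL. All 96 h libraries were below all 2iL libraries, and the log2 values against 2iL were -0.63 ± 0.25 with DOX (adjusted p = 0.093) and -0.66 ± 0.25 without DOX (adjusted p = 0.065). Pidd1, a caspase-2 scaffold, was at 7.84, 16.3 and 20.6 CPM with DOX and at 22.3, 24.6 and 24.7 CPM without DOX, a log2 difference of -0.72 ± 0.45 (adjusted p = 0.47). Eda2r, a receptor of the tumour necrosis factor family, Aen, a nuclease, Trp53inp1, an autophagy and stress protein, and the apoptosome gene Apaf1 had log2 values between -0.62 and 0.62. Fas, the death receptor, was not tested: it had at most 1.54 CPM in any library and no read in 6 of the 10.

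Of the 5 repair genes, 1 changed. Ercc5 encodes the nuclease Xpg of nucleotide excision repair and was at 26.6, 33.2 and 26.5 CPM with DOX, 50.2, 27.2 and 46.7 CPM without DOX, and 10.7, 25.1, 14.7 and 21.8 CPM in 2iL. The 96 h libraries lay above the 2iL libraries, by little for the lowest of them. Ercc5 rose without DOX by 1.19 ± 0.32 on the log2 scale over 2iL (edgeR adjusted p = 0.012), a call lost without no-DOX exp1_1 (1.02, adjusted p = 0.072); with DOX the value was 0.67 ± 0.33 (adjusted p = 0.18). The damage sensor Xpc averaged 19.7 ± 5.89, 24.2 ± 8.54 and 29.9 ± 6.99 CPM with DOX, without DOX and in 2iL, and passed in no comparison. The polymerase Polk, the damage sensor Ddb2 and the ribonucleotide reductase subunit Rrm2b had 427, 168 and 65 reads in all, and standard errors of 0.55 to 1.18 on the log2 scale. Ddb2 overlaps Acp2 on the opposite strand, which had 694 reads, and without a stated strand setting their reads cannot be told apart.

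**Figure D2:**
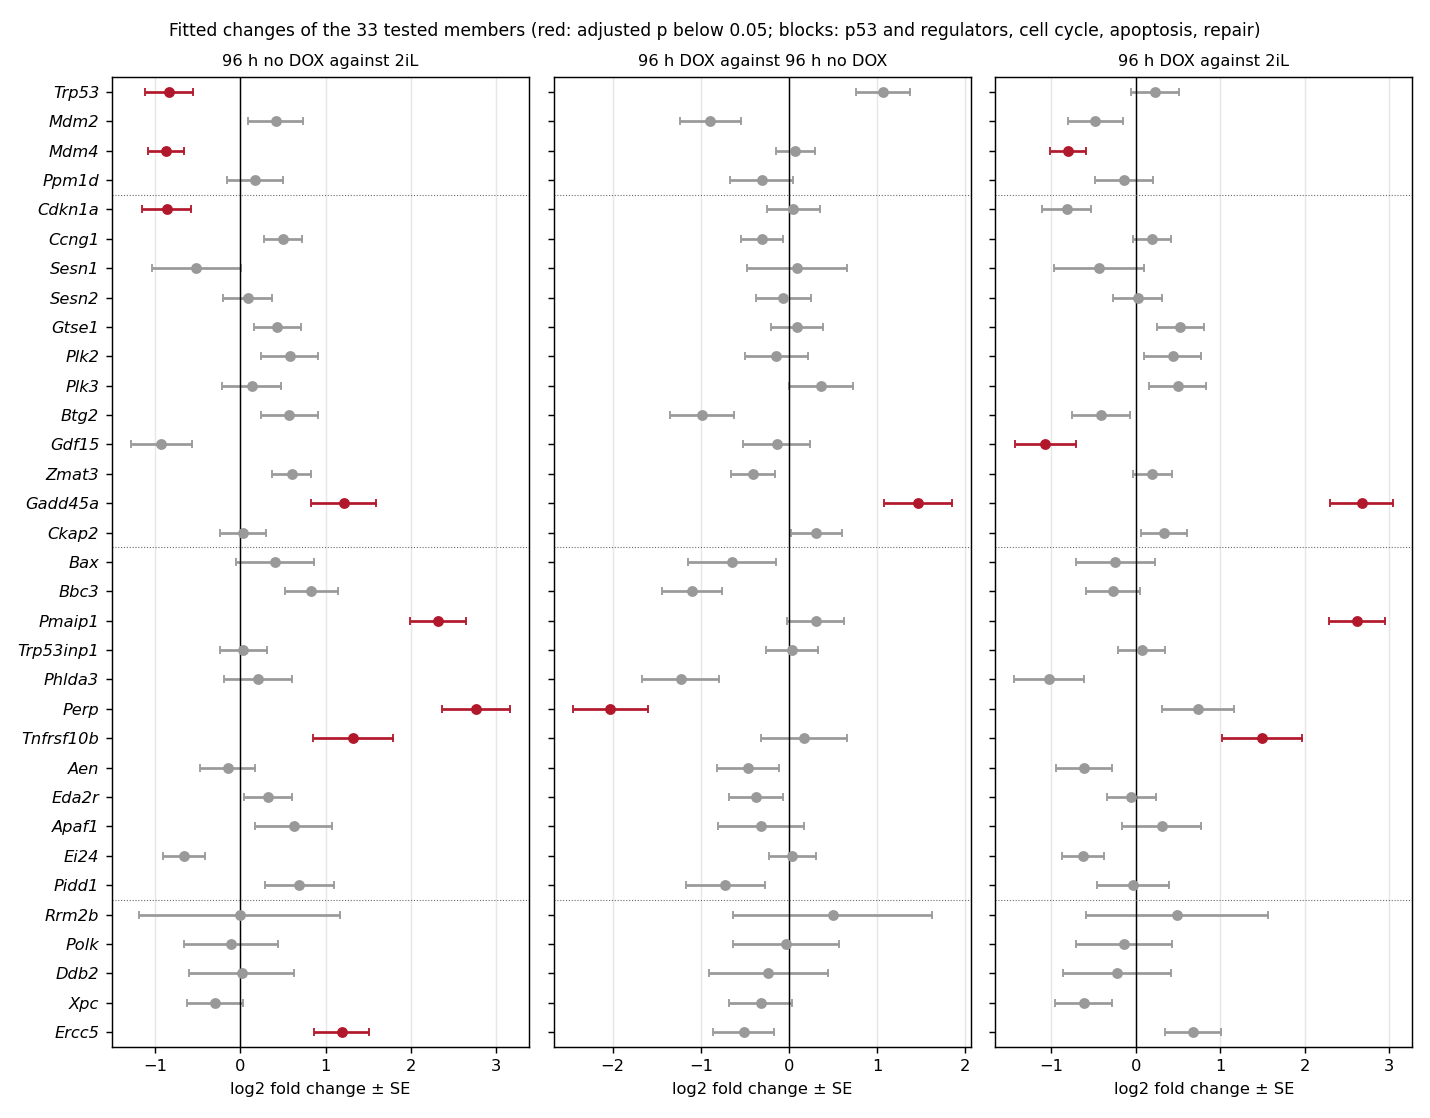
Log2 fold changes ± SE of the 33 tested genes in the 3 comparisons, in blocks of p53 and its regulators, cell cycle, apoptosis and repair, with genes past an adjusted p of 0.05 in red. The 8, 2 and 5 red points lie on both sides of 0 in each comparison.

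Few genes passed between the 96 h groups, in the list as among all tested genes. In DOX against no DOX, 2 of the 33 passed, beside 3.1% of all genes: Gadd45a was higher (1 gene, beside 2.16% of all genes) and Perp was lower (1 gene, beside 0.945%). At an unadjusted p below 0.05 there were 7, beside 15% of all genes. The median log2 difference of the 33 was -0.14, beside -0.017 over all genes, and 20 values lay below 0. Without DOX exp1_2, Perp alone was called, beside 260 of 11635 genes. In DOX against 2iL, 5 of the 33 passed, beside 16.7% of all genes. Pmaip1, Gadd45a and Tnfrsf10b were higher (beside 9.84% of all genes), and Mdm4 and Gdf15 were lower (beside 6.83%). The median was -0.03, beside 0.019 over all genes. Without DOX exp1_2 the calls were Pmaip1 and Gadd45a, higher, and Cdkn1a and Mdm4, lower. Over all genes, 1569 of 11635 passed in that fit. The 3 comparisons share their libraries in pairs and are not independent of each other.

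**Figure D3:**
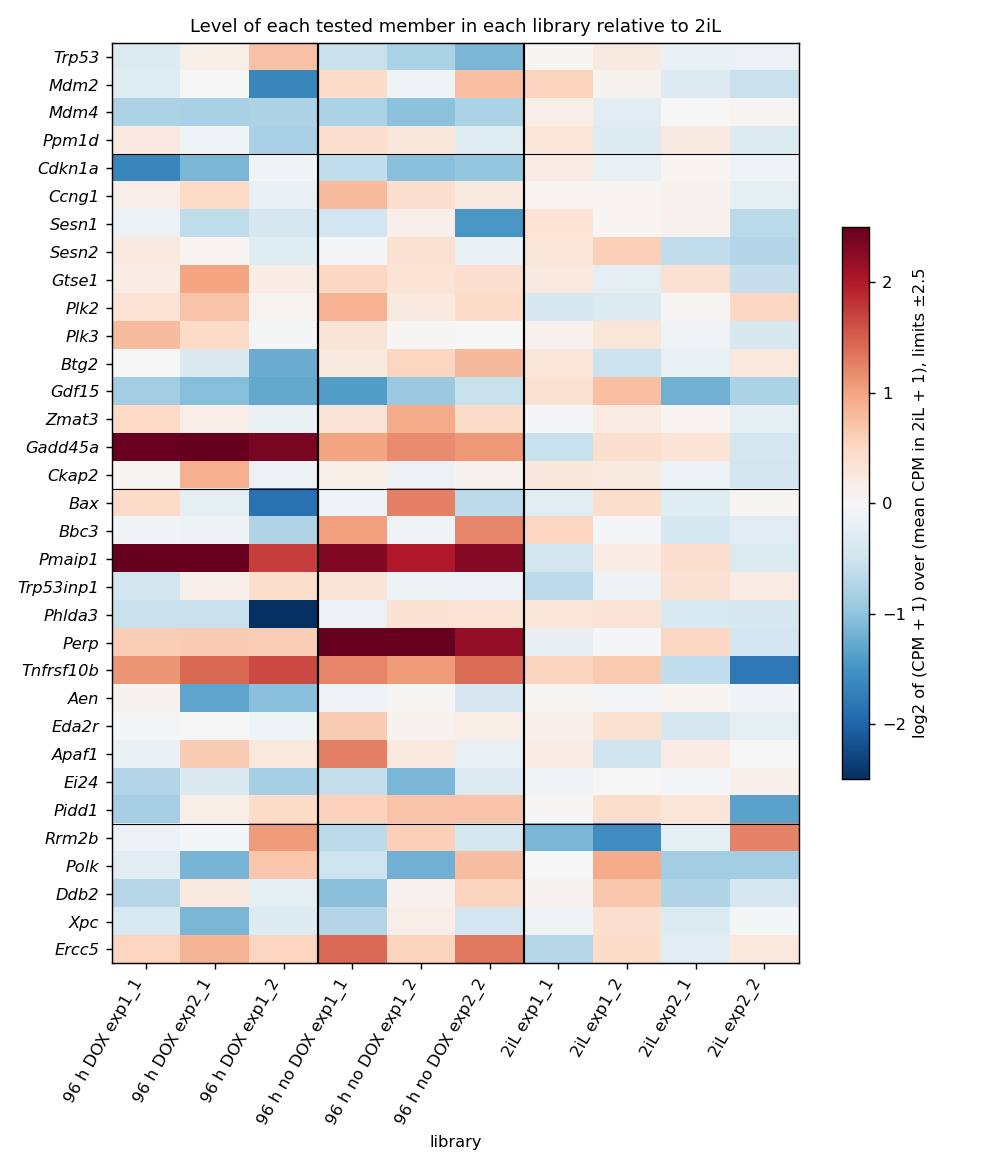
Level of each tested gene in each of the 10 libraries as log2 of CPM + 1 relative to the 2iL mean + 1, with the colour scale limited to ±2.5. Pmaip1 is raised in all 6 libraries at 96 h, Perp in the 3 no-DOX libraries, and 96 h DOX exp1_2 differs from the other DOX libraries at Cdkn1a, Phlda3, Bax and Mdm2.

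**Figure D4:**
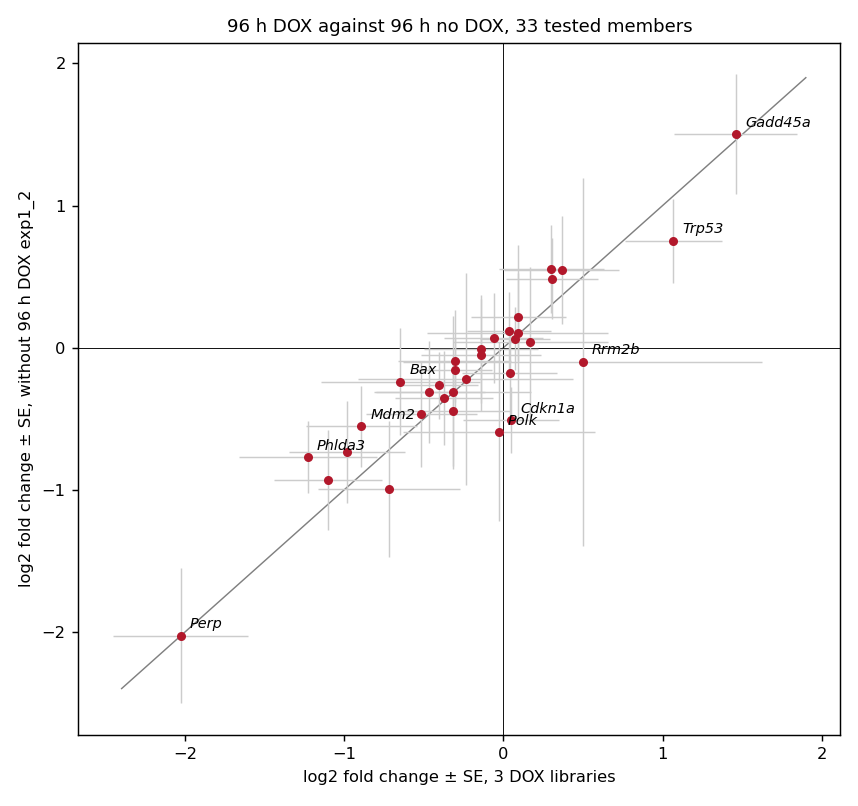
Log2 fold change ± SE of 96 h DOX against 96 h no DOX for the 33 tested genes, with 3 DOX libraries (x axis) and without exp1_2 (y axis). Perp (-2.03 on both axes) and Gadd45a (1.46 and 1.5) lie near the diagonal, whereas Cdkn1a moves from 0.05 to -0.51.

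The scaling of the libraries changed the balance of these calls. With library totals in place of TMM factors, 7 genes rose and 1 fell without 2iL, against 5 and 3; 2 were higher and 1 lower in DOX against no DOX, against 1 and 1; and 3 were higher and 1 lower in DOX against 2iL, against 3 and 2. Over all 11215 genes, 1381 were then called higher and 914 lower without 2iL, against 1291 and 998 with TMM. In DOX against no DOX these counts were 292 and 87, against 242 and 106. In DOX against 2iL they were 1416 and 582, against 1104 and 766. That scaling put the median of all genes at 0.17 in DOX against 2iL, against 0.019 with TMM. Trp53 and Cdkn1a then missed the threshold without 2iL (-0.78, adjusted p = 0.064, and -0.81, adjusted p = 0.051).

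The experiments were also compared. The effect of each comparison differed between experiments for none of the 33 genes in edgeR (adjusted p of at least 0.339 without 2iL, 0.857 for DOX against no DOX and 0.71 for DOX against 2iL), with 6, 1 and 6 genes at an unadjusted p below 0.05, beside 7.61%, 5.47% and 6.43% of all genes. Experiment 2 held 1 library in each 96 h group. A comparison of experiment 2 with experiment 1 within 2iL, chosen after the data had been seen, called none of the 33 genes, beside 0.0357% of all genes. At an unadjusted p below 0.05 there were 5 genes, beside 6.03% of all genes, with Gdf15 (-1.56 ± 0.31), Sesn2 (-1.14 ± 0.31), Tnfrsf10b (-1.95 ± 0.55) and Polk (-1.52 ± 0.53) lower in experiment 2 and Rrm2b higher.

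Other genes of the pathway were followed in lists drawn up by known function. Their counts of called genes stand beside the shares of all 11215 genes: 11.5% higher and 8.9% lower without 2iL, 2.16% and 0.945% for DOX against no DOX, and 9.84% and 6.83% for DOX against 2iL. Their medians stand beside medians over all genes of 0.0039, -0.017 and 0.019 in these 3 comparisons. At an unadjusted p below 0.05 the shares were 15% of all genes for DOX against no DOX and 29.4% for DOX against 2iL. Of 15 kinases and cofactors that activate p53, 1 passed without 2iL: Trp53bp1, a damage-site scaffold, rose to 139 ± 4.22 CPM without DOX, against 51.0 ± 12.6 CPM in 2iL (log2 1.45 ± 0.25, edgeR adjusted p = 0.00021). The median of the 15 was 0.05 without 2iL, -0.07 for DOX against no DOX and 0.0012 for DOX against 2iL. With DOX edgeR called none of them in either comparison, with 2 genes at an unadjusted p below 0.05 against no DOX and 6 against 2iL; DESeq2 called 1 and 0, and limma-voom 0 and 1. Without DOX exp1_2, Trp53bp1 passed in DOX against 2iL (0.77 ± 0.23, adjusted p = 0.029). Of 10 ligases and other regulators that mostly restrain p53, the ligase scaffold Cul4a rose (1.37 ± 0.30) and the deacetylase Sirt1 fell (-0.88 ± 0.31) without 2iL. The Sirt1 call was lost without any 2iL library, no-DOX exp1_2, no-DOX exp2_2 or DOX exp1_1 (adjusted p up to 0.201). Cdkn2a, whose Arf product restrains Mdm2, fell in DOX against 2iL to 99.1 ± 11.97 CPM, against 189 ± 33.5 CPM in 2iL; reads from 3′ ends do not separate its Ink4a and Arf products. Their median was 0.16 without 2iL, 0.16 for DOX against no DOX, with no gene called by edgeR (1 at an unadjusted p below 0.05; DESeq2 1, limma-voom 0), and 0.22 for DOX against 2iL. Of the p53 relatives, Trp63 had too few reads and Trp73 rose without DOX to 13.2 ± 3.10 CPM, against 2.08 ± 0.37 CPM in 2iL (log2 2.64 ± 0.51, adjusted p = 0.00065); with DOX it was at 3.6, 4.6 and 5.9 CPM and passed in neither comparison.

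Of 30 further p53 targets, 22 were tested. Without 2iL, 5 rose and 2 fell, with a median log2 change of 0.19. Trp53i11, a p53-induced gene, was at 134 ± 31.4 CPM without DOX, against 4.55 ± 1.66 CPM in 2iL (log2 4.89 ± 0.33, edgeR adjusted p = 4.17e-09). With DOX it was at 24.2 ± 9.03 CPM, lower than without DOX (-2.44 ± 0.32, adjusted p = 0.0001) and higher than in 2iL (2.45 ± 0.33), and was the only one of the 22 called for DOX against no DOX (median 0.06). The peptide transporter Tap1 (3.84 ± 0.66) and the chaperone Hspa4l (2.35 ± 0.63) also rose without DOX against 2iL, while the receptor kinase Epha2 (-1.38 ± 0.45) and the fructose bisphosphatase Tigar (-1.02 ± 0.22) fell. The Epha2 call was lost without 2iL exp1_1, 2iL exp1_2, no-DOX exp1_1 or no-DOX exp2_2 (adjusted p up to 0.156). In DOX against 2iL, 3 rose (Hspa4l, Tap1 and Trp53i11) and 2 fell (Tigar and Triap1), with a median of 0.29. Hspa4l was at 9.98, 6.76 and 41.3 CPM in the DOX libraries, and its log2 change was 3.20 ± 0.64 with exp1_2 and 2.07 ± 0.63 (adjusted p = 0.03) without it. Triap1, an inhibitor of apoptosis, was at 100.5, 100.5 and 48.6 CPM, with exp1_2 the lowest. Its call was lost without exp1_2 (-0.79 ± 0.27, adjusted p = 0.053) or 2iL exp1_1 (adjusted p = 0.074).

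Of 16 cell cycle genes known to be lowered through p21, most stayed below the threshold. The transcription factor E2f1 fell with DOX to 44.1 ± 13.6 CPM and without DOX to 63.9 ± 20.9 CPM, against 134 ± 39.5 CPM in 2iL (log2 -1.58 ± 0.30 and -1.08 ± 0.29). The call without DOX was lost without no-DOX exp1_2 (adjusted p = 0.071). The replication factor Mcm5 fell with DOX against 2iL (-0.94 ± 0.24, edgeR adjusted p = 0.0095). The list medians were -0.04 without 2iL, -0.0098 for DOX against no DOX, where edgeR, DESeq2 and limma-voom called none (2 at an unadjusted p below 0.05), and 0.20 for DOX against 2iL. Of 14 other regulators and effectors of apoptosis, 13 were tested. Without 2iL, 4 rose and none fell; 9 of the 13 fitted values lay below 0, and their median was -0.27. The antiapoptotic Bcl2 (2.94 ± 0.58) and the BH3-only genes Bmf (2.42 ± 0.67) and Bcl2l11 (1.77 ± 0.36) were among the 4. For DOX against no DOX, edgeR called none (median -0.15; 5 at an unadjusted p below 0.05; DESeq2 1, limma-voom 0). In DOX against 2iL, Bmf (3.47 ± 0.66) and Bcl2 (1.82 ± 0.60) rose and the pore-forming Bak1 fell (-1.06 ± 0.35), with a median of 0.14. Bak1 was at 146, 106 and 41.3 CPM in the DOX libraries, with exp1_2 the lowest. Without exp1_2 only the Bmf call was kept (3.87 ± 0.63, adjusted p = 0.00015); Bak1 (-0.72 ± 0.30, adjusted p = 0.119) and Bcl2 (1.78 ± 0.65, adjusted p = 0.073) missed the threshold. The Bcl2 call was also lost without 2iL exp1_1, 2iL exp1_2, 2iL exp2_2, no-DOX exp1_1, no-DOX exp2_2 or DOX exp2_1, and that of Bak1 without 2iL exp1_2, 2iL exp2_1, 2iL exp2_2 or DOX exp2_1. Without DOX exp1_2, 3 further calls appeared in these lists: for no DOX against 2iL the mitotic regulator Psrc1 rose (0.61 ± 0.21, adjusted p = 0.040) and the antiapoptotic Mcl1 fell (-0.55 ± 0.18, adjusted p = 0.032), and for DOX against 2iL the replication factor Mcm3 fell (-0.64 ± 0.19, adjusted p = 0.032). For DOX against no DOX, the list medians then changed sign, to -0.04 for the ligases and other regulators, 0.12 for the genes lowered through p21 and 0.07 for the apoptosis genes.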

How the data were processed

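The authors deposited read counts per gene and a table of CPM (reads scaled to the library total) for 10 3′-end polyA libraries. Per the submitters' processing notes, bcl2fastq, STAR 2.6.0a, HTSeq and build mm10 were used; the sources used here give neither annotation release nor strand setting. The 5 HTSeq summary lines, 62.7% to 68.4% of all deposited counts, were removed. The deposited CPM table gave whole reads, equal to the counts, for 310530 of 310530 entries (within 0.01, 100% whole). Symbols were matched for 30934 of 31053 IDs, and positions are GENCODE vM21.

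Genes were kept by filterByExpr (minimum count 10), scaled by TMM and fitted with edgeR 4.0.16 (R 4.3.3; quasi-likelihood, robust) to all 10 libraries by group. Called means a Benjamini-Hochberg adjusted p below 0.05 over 11215 genes. SE comes from the fold change and the F statistic. All listed genes are named or counted; from other lists, at most the 3 largest called changes per direction and comparison. The steps were tested on simulated data. Members and lists were chosen with earlier results of these data known. Alternatives were RLE scaling, library totals, other filters, DESeq2 1.42.0, limma-voom (limma 3.58.1), experiment 1 alone, a replicate block, the compared groups only, each library left out, and counts recovered from CPM, on which edgeR called 2289, 348 and 1870 genes (96 h no DOX against 2iL, 96 h DOX against no DOX, 96 h DOX against 2iL), as on the counts. The last, and the comparison of experiments within 2iL, were chosen after seeing the data.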

Additional observations from a re-analysis of the deposited data

Results flagged for a closer look

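Among the 34 genes, tested in the 4 libraries of the 2iL group, Ccng1 had 1 library far from the others: exp2_2 was at 107.2 CPM, against 131 to 134 CPM in the other 3. The gap took 0.887 of the group's range, above Dixon's 95% critical value for 4 libraries. Chance gives such a gap in about 5% of groups, and 34 groups were examined.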

How the results depend on the processing

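The numbers of called genes (8 without 2iL, 2 for DOX against no DOX, 5 for DOX against 2iL) moved with the libraries used. Over all 11215 genes the calls were 2289, 348 and 1870. In experiment 1 alone 3, 0 and 3 listed genes passed, beside 1226, 108 and 926 of 11309 genes. For DOX against no DOX, edgeR then had 6 listed genes at an unadjusted p below 0.05 (10.1% of all genes). Leaving out each library in turn gave 3 to 12, 0 to 2 and 3 to 5. Over all genes these fits called 1779 to 2718, 161 to 358 and 1408 to 1916. The 0 came without no-DOX exp1_1 (7 genes at an unadjusted p below 0.05, beside 12.9% of all genes) and the 12 without DOX exp1_2. With no filter beyond 1 read, 6 listed genes passed for DOX against no DOX, beside 564 of 18318 genes. Trp53 and Gadd45a were higher, and Perp, Bbc3, Mdm2 and Phlda3 were lower. In the same comparison DESeq2 and limma-voom called 3 and 2 listed genes, beside 563 and 292 of 11215 genes. With only the compared groups, 3 listed genes passed for DOX against 2iL, beside 1648 of 10613 genes. The experiment as a replicate block gave 8, 2 and 5, beside 2244, 347 and 1815 of 11215 genes. Between groups, libraries of the same experiment deviated from their group means with correlations of -0.154 to 0.205. For libraries of different experiments these were -0.179 to 0.133. The titles do not say whether libraries are pairs, and correlations in groups this small cannot decide it. No repeat used experiment 2 alone. Of the repeats for single genes called in any fit, 0 reversed, 441 stayed on the same side of the threshold, 65 were no longer past it and 34 were newly past it. The causes were not tested. The smallest library holds 1253620 reads, which limits genes such as Rrm2b, Ddb2 and Fas.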
